A study of Homo sapiens with 288 samples.

Results

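The HOX genes encode homeodomain transcription factors and lie in 4 clusters, HOXA, HOXB, HOXC and HOXD. They were selected as every gene whose symbol is HOX followed by a cluster letter and a number, which gave 39 of the 17492 protein-coding genes: 11 in HOXA, 10 in HOXB, 9 in HOXC and 9 in HOXD. The number in a gene's name is its paralogue group, from 1 at one end of a cluster to 13 at the other, and genes of the same group in different clusters are the closest relatives. As background, HOX genes give cells of the embryo their position along the head-to-tail axis. Genes of low groups come on first and closest to the head, and retinoic acid switches on several of them. In pluripotent cells the clusters are held silent by Polycomb complexes, and HOX proteins bind DNA together with PBX and MEIS partners.

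Expression was measured in single cells differentiated from the H1 human embryonic stem cell line. Endothelial cells (EC) had been seeded in E8 medium with BMP4 and Activin A, then given VEGF and WNT. Trophoblast-like cells (TB) had been seeded in E7 medium, which is E8 without FGF2, with BMP4 and SB431542, an inhibitor of Activin and Nodal receptors. The stored full-length cDNA of the same 96 cells (45 EC and 51 TB) was equalized in amount and made into libraries in 3 experiments: EQ with equal pooling volumes, EQ-Vary with volumes varied by a scaling factor, and EQ-75% as a repeat at lower depth. All cells come from 1 line, and no separate cultures are named, so each cell type in an experiment was 1 sample and no test between EC and TB was possible. SDs below are between cells, and intervals cover counting error only.

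Cells were kept if they met the study's limits, which ask for enough counts in a cell and for not too many of them in its 50 most abundant genes. EQ kept 38 EC and 48 TB cells, 38 and 46 stayed in EQ-Vary, and EQ-75% had 39 and 50. Total counts of these cells ranged from 291377 to 6345186 over the 3 experiments. In EQ the median total was close in both types, at 2025167 in EC and 1968586 in TB. The labelled types carried their markers: 15 of 15 endothelial markers were at least 4-fold higher in EC of EQ by their mean level over cells, compared with 10.1% of the 12351 genes that averaged 1 count per 1000000, led by TIE1 (707-fold), TEK (613-fold), CDH5 (540-fold) and PLVAP (486-fold). Of 13 trophoblast markers, 10 were at least 4-fold higher in TB (all genes 14.8%), led by KRT7 (765-fold by summed counts, exact 95% counting interval 262 to 3713, with 3 counts in EC), XAGE2 (428-fold), VTCN1 (314-fold) and HAND1 (299-fold). Of the pluripotency, blood cell and neuroectoderm lists, the members called were all higher in EC (all genes 10.1%). GDF3 (785-fold) was called among the 7 of 8 pluripotency markers that averaged 1 count per 1000000. MYB (342-fold) was called among the 4 of 9 blood cell markers at that level. Only 2 of 9 neuroectoderm markers reached it, and both were called, NES (42.01-fold) and OTX2 (1149 counts against 1). A list of mesenchyme markers, with 5 members higher in TB, is given beside HOXB2. Of 6 primitive streak genes, 0 averaged 1 count per 1000000.

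Most HOX genes were silent in both cell types, while HOXB2 in TB and HOXB13 in both types were found in most cells. In all 288 libraries, 25 of the 39 HOX genes had a rounded count of 0, which is 64.1% of them, while 2172 of the 17492 genes (12.4%) had none. Among them were 2 of the 10 HOXB genes (HOXB8 and HOXB9), 7 of the 9 HOXC genes and 7 of the 9 HOXD genes. A HOX gene at 0 of 38 EC cells could still be detectable in up to 7.89% of such cells, and one at 0 of 48 TB cells in up to 6.25%. A count in any passing cell was seen for 13 HOX genes in EQ (85.1% of all genes), 14 in EQ-Vary (84.7%) and 14 in EQ-75% (84.6%), which added HOXB1.

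**Figure D1:**
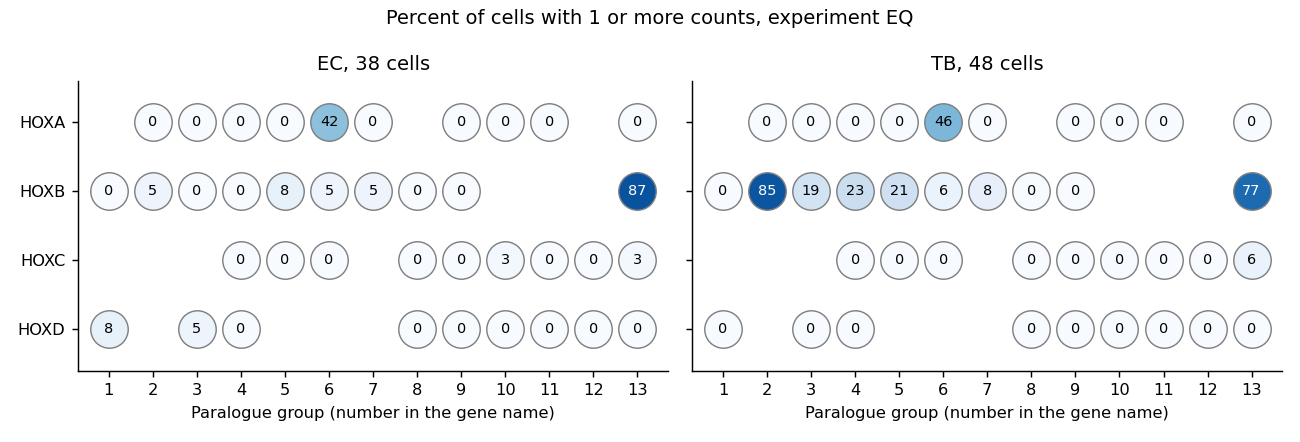
Percent of passing cells with 1 or more counts of 38 HOX genes in EQ, for 38 EC cells (left) and 48 TB cells (right). Rows are the 4 clusters, columns the paralogue groups, and darker circles mark larger shares. HOXB2 stands at 85.4% in TB and 5.26% in EC, HOXB13 is high in both, and most positions are at 0.

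At a share of at least 10% of cells, 2 HOX genes were detected in EC (HOXA6 and HOXB13) and 7 in TB, among them HOXA6, HOXB2, HOXB3, HOXB4, HOXB5 and HOXB13. The background was 69.2% of all genes in EC and 70.8% in TB, so the HOX genes lay far below it in both. EQ-Vary had 3 HOX genes at this share in EC (background 68.6%), HOXB5 being the third, and the same 7 in TB (70.4%). EQ-75% had 5 in EC (67.3%), with HOXB5, HOXB7 and HOXD1 besides HOXA6 and HOXB13, and again the same 7 in TB (70.1%). A cell had counts for 1.71 ± 0.867 HOX genes in EC (SD, n = 38 cells) and 3.02 ± 1.38 in TB (SD, n = 48 cells). These means depend on the count asked for: at 3 or more counts they were 0.974 and 1.94, and with cells thinned to 500000 counts they were 1.04 and 2.11. Their summed level was 9.75 ± 15.96 CPM (counts in a cell per 1000000 of its counts) in EC and 24.7 ± 22.7 CPM in TB, so the ranges of single cells overlapped. HOXB held 76.0% of the mean summed CPM in EC, where HOXB13 alone had 4.86 CPM, and 81.6% in TB. With summed counts over summed totals, the HOXB shares were 58.9% and 88.1%.

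HOXA6 and HOXB13 were found in both types, and their values differed in kind from those of the other HOX genes. Without these 2 genes, 25 of 38 EC cells had no HOX count at all, compared with 4 of 48 TB cells. The mean number of HOX genes per cell then fell to 0.421 ± 0.683 in EC and 1.79 ± 1.27 in TB. This choice was made after the values were seen, and the 2 genes are described after the others.

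Along HOXB in TB, HOXB13 aside, detection peaked at HOXB2 and ended at HOXB7. No passing TB cell of EQ had a count of HOXB1. HOXB2 was detected in 41 of 48 cells, HOXB3 in 9, HOXB4 in 11, HOXB5 in 10, HOXB6 in 3 and HOXB7 in 4, and HOXB8 and HOXB9 in 0. Divided by transcript length, HOXB2 had the highest mean level of all HOX genes in TB, at 6.18 ± 7.01 CPM per kb (SD, n = 48 cells). HOXB4 came next at 1.33 ± 4.71 CPM per kb, a gap smaller than the SD of HOXB2 between cells, followed by HOXB5 at 0.977 ± 3.48. From HOXB4 down to the last gene detected, HOXB6 at 0.371 ± 2.28 CPM per kb, the means of neighbours in the order differed by less than their SD between cells. Apart from HOXA6 and HOXB13, groups 1 to 4 held 78.4% of the HOX counts of TB in EQ, groups 5 to 9 held 15.9% and groups 10 to 13 held 5.64%. Without TB cell 20 the last share was 0.0988% and the first 82.6%. In EC the shares were 66.4%, 33.05% and 0.575%, but without EC cell 24 they were 20.9%, 77.7% and 1.35%. Both cells were left out after the values were seen.

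HOXB2, a gene known for patterning the hindbrain, lies at chr17:48540894-48545109 on the minus strand (GRCh38, GENCODE v44) and has 2 exons. In EQ its level in TB ranged from 0 to 47.5 CPM with a median of 5.58 CPM, and its count reached 113 in TB cell 16. In EC it had 3 counts in all, 1 in EC cell 23 and 2 in EC cell 35, and the highest EC level was 1.43 CPM. The quartiles of the TB cells were 1.74 and 15.7 CPM, both above every EC cell, but 7 TB cells had no count and overlapped with EC. The share of cells with a count was 85.4% in TB (exact binomial 95% interval 72.2 to 93.9%) and 5.26% in EC (0.644 to 17.7%). The summed counts were 1064 and 3, a ratio of TB to EC per total count of 288, with an exact 95% counting interval from 98.2 to 1397.

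The same cDNA gave the same picture of HOXB2 in the other experiments. EQ-Vary had it in 41 of 46 TB cells and 1 of 38 EC cells, at 10.8 ± 12.05 and 0.0374 ± 0.231 CPM (SD between cells). In EQ-75% it was in 39 of 50 TB cells and 3 of 39 EC cells, at 9.45 ± 11.9 and 0.128 ± 0.608 CPM. Of the 8 EC counts in EQ-75%, 6 were in EC cell 14, a cell too shallow to pass in EQ. The ratio of summed counts was 134 (61.3 to 366) with varied pooling and 70.8 (35.8 to 165) in EQ-75%, the first within the interval of EQ and the second below it. Of the 45 TB cells that passed in all 3 experiments, 37 showed HOXB2 in all 3, 2 in 2, 3 in 1 and 3 in none. Its rank order over TB cells was kept between libraries of the same cDNA, with Spearman correlations of 0.950 between EQ and EQ-Vary (46 cells) and 0.918 between EQ and EQ-75% (47 cells).

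**Figure D2:**
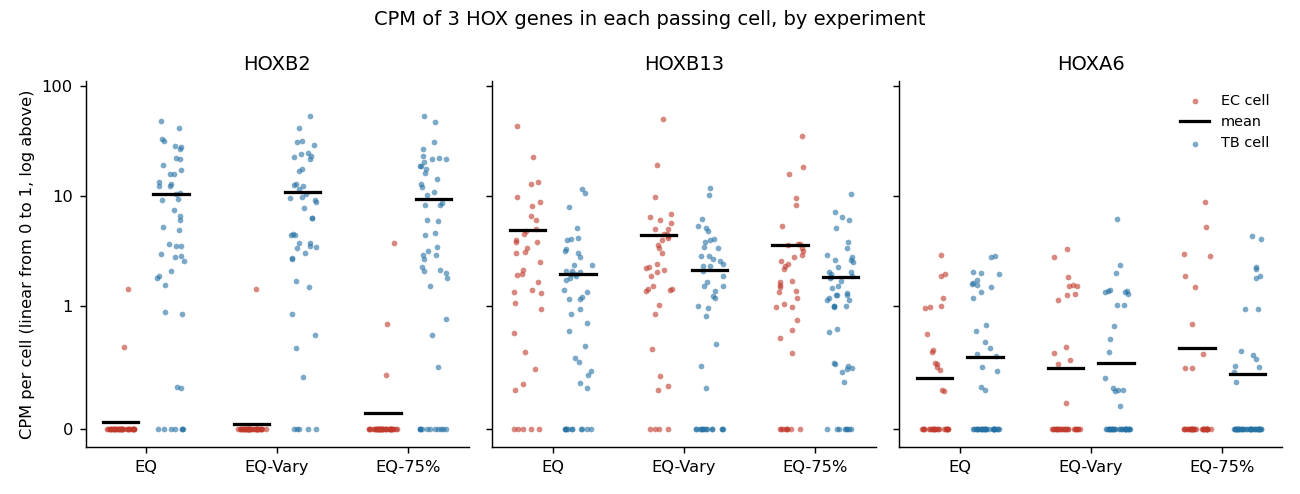
CPM of HOXB2, HOXB13 and HOXA6 in every passing cell of EQ, EQ-Vary and EQ-75%, EC in red and TB in blue, on an axis that is linear up to 1 CPM and logarithmic above. Each point is a cell and each bar the mean of the cells. HOXB2 is nearly empty in EC and reaches 47.5 CPM in TB in EQ, while the clouds of HOXB13 and HOXA6 overlap between EC and TB.

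The TB cells also carried genes of connective tissue, which is another difference between the types besides that of HOXB2. Of 10 mesenchyme markers, 9 averaged at least 1 CPM, and 5 were at least 4-fold higher in TB (all genes 14.8%) and 0 in EC (10.1%), led by COL3A1 (305-fold), LUM (297-fold), DCN (230-fold) and COL1A1 (12.9-fold). Their summed level ranged from 657 to 10876 CPM in TB and from 6.04 to 786 CPM in EC. FOXF1 was at 0 in both types, and PDGFRA was at 7.28 CPM in TB and 11.8 CPM in EC. Across the 48 TB cells of EQ, HOXB2 had a Spearman correlation of -0.0225 with the summed mesenchyme markers and 0.251 with the summed trophoblast markers. The correlation of HOXB2 with the total count of the cell was 0.217, and all these values share the cell's library and depth. The part of the mesenchyme genes in the difference between EC and TB was not tested.

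Of the 6 HOX genes that averaged at least 1 CPM over both types in EQ, 3 were at least 4-fold higher in TB, HOXB2 and HOXB4 among them, and 0 in EC. The background was 14.8% of 12351 genes higher in TB and 10.1% higher in EC. For HOXB4, EC had no count and was set at a floor of 3 counts over the summed total of all EC cells. The mean CPM in TB was 69.5-fold above this floor. The fold is not a strict bound, because the floor is a pooled level and the TB value a mean over cells. It rested on few cells. Without its highest TB cell, HOXB4 fell from 2.66 to 1.65 CPM, and it then averaged less than 1 CPM over the types and could not be called. HOXB2 kept its call, at 9.61 CPM in TB. In EQ-Vary the genes called higher in TB were HOXB2, HOXB3 and HOXB4 (background 14.7%), and HOXD1 was called higher in EC (10.2%). In EQ-75% there were 2 in TB (15.1%), HOXB2 among them, and HOXB7 in EC (9.46%). HOXB2 was the 1 gene called in all 3 experiments.

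HOXB3, HOXB4 and HOXB5 were strong in a few TB cells and absent from most. HOXB3, in group 3, had 229 counts over the TB cells of EQ, 137 of them (59.8%) in TB cell 5, and none in EC. Its mean was 1.97 ± 7.38 CPM (SD, n = 48 cells), 51.6-fold above the EC floor but below the average of 1 CPM needed for a call. HOXB4, a gene known from blood stem cells, had 317 counts in TB at 2.66 ± 9.43 CPM, led by TB cell 5 with 113, TB cell 36 with 96 and TB cell 16 with 81. HOXB5, which takes part in lung development, had 203 counts in 10 TB cells and 25 in 3 EC cells, at 1.82 ± 6.46 CPM and 1.05 ± 5.86 CPM. The HOXB5 means differed by less than the SD of either type, and 17 of the 25 EC counts were in EC cell 21. HOXB1, in group 1 of HOXB, appeared only in TB cell 21, with 3 counts in EQ-Vary, 2 in EQ-75% and 0 in EQ.

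**Figure D3:**
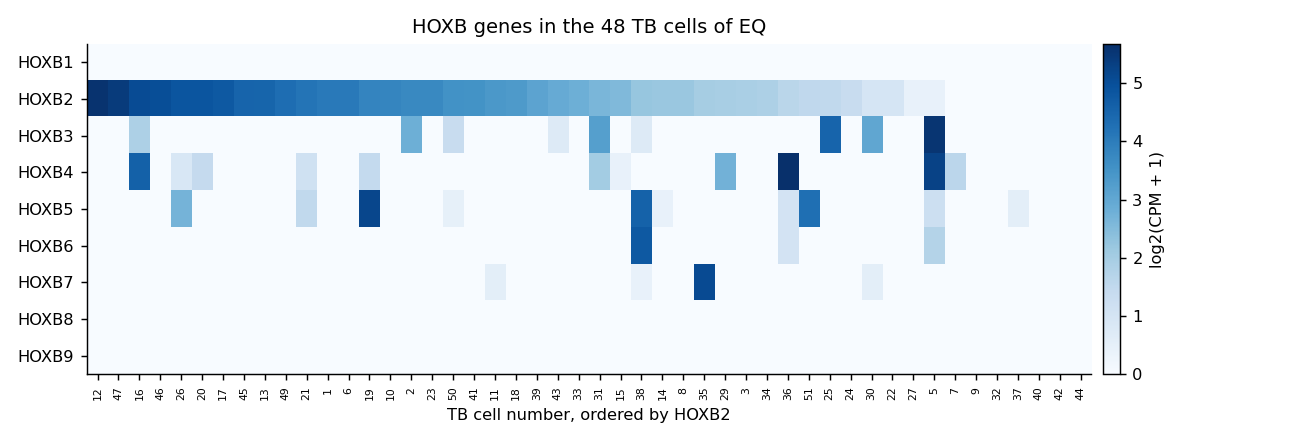
Levels of the HOXB genes other than HOXB13 in the 48 TB cells of EQ, as log2(CPM + 1), with cells ordered by their HOXB2 level. HOXB2 forms a continuous gradient that ends in 7 cells at 0, and the genes from HOXB3 to HOXB7 appear as isolated dark cells.

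Neighbouring HOXB genes were found in the same TB cell in some cases and apart in others. Of the 48 cells, 5 had no HOXB gene from HOXB1 to HOXB9, 23 had 1, 10 had 2 and 10 had 3 or more, and in 21 cells HOXB2 was the only gene detected. TB cell 5 combined 137 counts of HOXB3 and 113 of HOXB4 with 7 of HOXB6, 4 of HOXB5 and 1 of HOXB2. TB cell 38 combined 79 counts of HOXB6 and 68 of HOXB5 with 11 of HOXB2, 2 of HOXB3 and 1 of HOXB7. Both cells had little HOXB2 beside their leading genes, at 0.334 and 3.68 CPM. TB cell 16 was different, with 113 counts of HOXB2 beside 81 of HOXB4. All 3 cells with HOXB6 also had HOXB5, and 5 of the 11 cells with HOXB4 did. HOXB3 and HOXB4, detected in 9 and 11 cells, shared 3, and HOXB6 and HOXB7, in 3 and 4 cells, shared 1. The transcripts of HOXB3 and HOXB4 share no stretch of read length with each other, although HOXB4 lies within the span of HOXB3.

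In EC the HOX genes other than HOXA6 and HOXB13 came from single cells and from other clusters as well. HOXD1, in group 1 of HOXD, had 218 counts in EQ, 200 of them in EC cell 24, 16 in EC cell 43 and 2 in EC cell 31, and none in TB. HOXD3 had 10 counts, 9 of them in EC cell 31, and none in TB. HOXB7 had 88 counts in EC, 79 in EC cell 6 and 9 in EC cell 23, and 59 in TB, 56 of them in TB cell 35. HOXC10 had 1 count in EC and none in TB. HOXC13, a gene of hair and nails, had 124 counts in TB, 122 of them in TB cell 20, and 1 in EC. HOXB6 had 88 counts in TB, 79 of them in TB cell 38, and 2 in EC. Per length, the mean level in EC was 1.04 ± 5.09 CPM per kb for HOXB7, 0.941 ± 5.24 for HOXD1, 0.566 ± 3.15 for HOXB5, 1.60 ± 2.57 for HOXB13 and 0.415 ± 0.674 for HOXA6 (SD, n = 38 cells). Each pair of these means differed by less than the larger of its SDs.

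Strong counts of a HOX gene in a cell came back whenever the same cDNA was sequenced again. With HOXB2, HOXA6 and HOXB13 set aside, 21 pairs of a gene and a cell had 10 or more counts in EQ and a cell that passed in all 3 experiments, 17 in TB and 4 in EC. Every pair had at least 5 counts in both other experiments. Over all genes, 10 or more counts in EQ were followed by at least 1 count in EQ-75% in 99.6% of EC and 99.8% of TB cases. The share over all genes with at least 5 counts was not computed. HOXD1 in EC cell 24 had 200 counts in EQ, then 297 with varied pooling and 127 in the repeat at lower depth. HOXB6 in TB cell 38 had 79, 143 and 110 counts in the same order. HOXC13 in TB cell 20 had 122, 39 and 131. The experiments share their amplified cDNA, so these repeats speak for library preparation and sequencing and cannot tell what was in the cell from what arose before or during amplification.

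**Figure D4:**
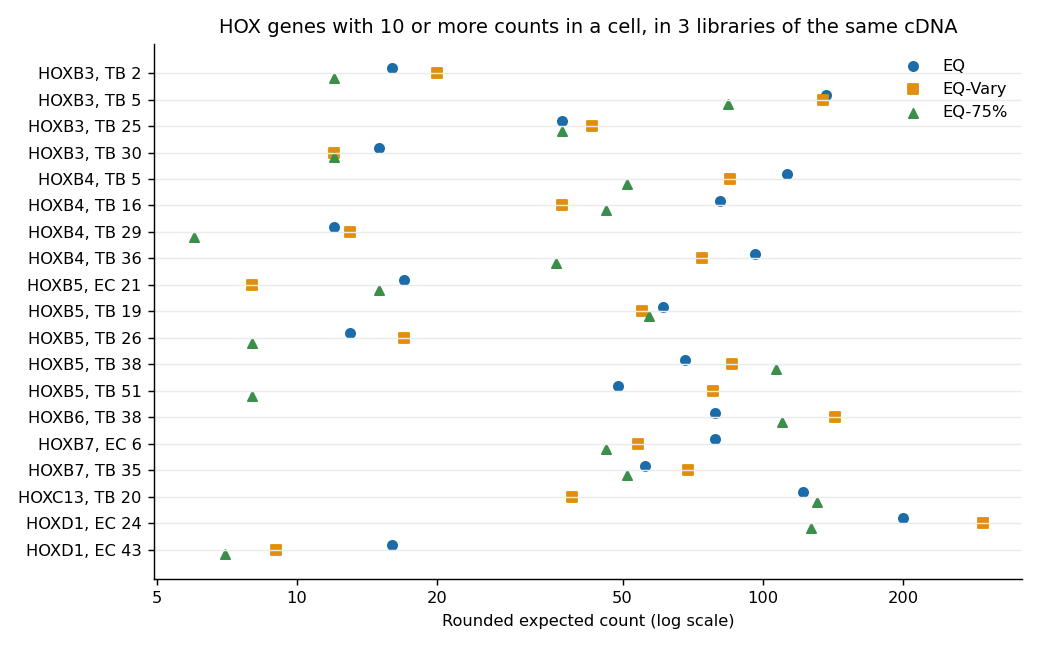
Rounded counts, on a log axis, of 19 of the 21 gene and cell pairs with 10 or more counts in EQ, HOXB2, HOXA6 and HOXB13 aside. Circles are EQ, squares EQ-Vary and triangles EQ-75%. Every pair shown has at least 5 counts in each library, from HOXB4 in TB cell 29 (12, 13 and 6) to HOXD1 in EC cell 24 (200, 297 and 127).

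Single counts were less often found again. Of all HOX detections in EQ, 69.8% in EC (44 of 63, exact 95% interval 57.0 to 80.8%) and 80.3% in TB (114 of 142, 72.8 to 86.5%) had a count in the same cell of EQ-75%. The shares over all genes were 86.7% in EC and 90.5% in TB. Among the 37 HOX genes without HOXA6 and HOXB13, a single count in a TB cell of EQ was found again in 4 of 16 cases (25.0%, 7.27 to 52.4%), compared with 41.5% over all genes. With 2 to 9 counts it was 23 of 25 (92.0%, 74.0 to 99.0%), compared with 81.6%, and with 10 or more it was 44 of 44, compared with 99.8%.

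EQ-75% included 2 cells whose libraries were nearly empty in EQ. EC cell 14 had a total count of 13313 in EQ and 1615801 in EQ-75%, where it held 115 counts of HOXB7. TB cell 28 had 12436 in EQ and 1847435 in EQ-75%, with 91 counts of HOXB5. HOXB7 was therefore called at least 4-fold higher in EC in EQ-75%, at 2.88 against 0.593 CPM (4.86-fold). Without EC cell 14 the values were 1.09 and 0.593 CPM (1.83-fold), and the call was lost.

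HOXB13, a gene of the tail end known from prostate, and HOXA6 were spread over both types at low counts. HOXB13 was detected in 33 of 38 EC cells of EQ (86.8%, exact 95% interval 71.9 to 95.6%) and 37 of 48 TB cells (77.1%, 62.7 to 88.0%). Its level ranged from 0 to 42.8 CPM in EC with a median of 2.32 CPM, and from 0 to 11.5 CPM in TB with a median of 1.19 CPM. The means were 4.86 ± 7.83 CPM in EC and 1.94 ± 2.51 CPM in TB (SD between cells). Both types had cells at 0 and most EC cells lay within the range of TB, but the highest EC cells lay above every TB cell. HOXA6 was detected in 16 EC and 22 TB cells, with at most 7 counts in a cell, at 0.411 ± 0.666 and 0.583 ± 0.815 CPM. The HOXA6 median was 0 CPM in both types and its highest level 2.92 CPM in EC and 2.82 CPM in TB, so the ranges nearly coincided.

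The HOX genes next to both in their clusters were silent. HOXA5 and HOXA7 had no rounded count in any library, nor had HOXB8 and HOXB9. PRAC1, which lies between HOXB9 and HOXB13, was found in 26.3% of EC and 25.0% of TB cells, at 0.205 and 0.186 CPM. Between EQ and EQ-75%, the Spearman correlation over TB cells was 0.531 for HOXB13 and 0.375 for HOXA6, compared with 0.918 for HOXB2 (47 cells each). Between EQ and EQ-Vary it was 0.693, 0.550 and 0.950 (46 cells each). Over EC cells HOXB13 had 0.683 with EQ-75% (37 cells) and 0.565 with EQ-Vary (38 cells). In EC the HOXB13 level had Spearman correlations with the total count of -0.524 (EQ), -0.374 (EQ-Vary) and -0.287 (EQ-75%). In TB they were -0.166, 0.0044 and -0.0542. The level has the total count in its denominator. For the HOXB13 count itself the correlations were -0.197, 0.125 and -0.0488 in EC, and 0.132, 0.423 and 0.301 in TB. HOXA6 was found again in EQ-75% in 6 of 15 EC detections and 10 of 21 TB detections, and HOXB13 in 27 of 32 (84.4%) and 33 of 36 (91.7%). The shares over all genes were 86.7% and 90.5%, but most of those detections had 10 or more counts. At single counts HOXA6 had 3 of 9 in EC and 2 of 8 in TB, and HOXB13 3 of 5 and 7 of 8. Over all genes it was 32.6% and 41.5%. At 2 to 9 counts HOXA6 had 3 of 6 and 8 of 13, and HOXB13 15 of 18 and 22 of 24. Over all genes it was 74.2% and 81.6%.

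The expected count of a gene is not whole when the software divides a read between that gene and another it could come from. Of the nonzero values of HOXB13 in the 288 libraries, 215 of 225 (95.6%) were not whole to within 0.005, and of HOXA6 88 of 106 (83.0%). Of the other HOX genes 37 of 321 (11.5%) were not whole. Over all genes, 47.4% of nonzero values below 30 were not whole. Of the 939 different stretches of 51 bases in the HOXA6 transcripts, 80 (8.52%) matched transcripts of 6 other protein-coding genes with up to 2 mismatches, among them HOXA5, HOXA7, HOXB4 and HOXB5. For HOXB13 it was 0 of 2989, and for HOXB2 0 of 1632. The search used GENCODE v44 transcripts, while the counts came from an Ensembl reference whose release is not named. A share of 0 therefore does not show that HOXB13 reads were unique. The part of shared reads in the detection of HOXA6 and HOXB13 was not tested.

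One such stretch is shown because it makes visible how alike HOX transcripts are over the length of a read. It lies in the coding sequence of HOXA6, at bases 515 to 565 of the transcript (GENCODE v44, GRCh38), and the lines below it are the matching stretches of HOXA5 (bases 684 to 734), HOXB5 (704 to 754) and HOXA7 (545 to 595), with the bases that differ from HOXA6 in capitals.
HOXA6: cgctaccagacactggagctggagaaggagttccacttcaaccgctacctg
HOXA5: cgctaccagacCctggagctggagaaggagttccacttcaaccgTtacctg
HOXB5: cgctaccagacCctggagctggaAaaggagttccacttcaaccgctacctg
HOXA7: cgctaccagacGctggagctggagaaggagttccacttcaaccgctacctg
HOXA5 and HOXB5 differ from HOXA6 at 2 of the 51 positions and HOXA7 at 1, which is within the 2 mismatches allowed in mapping. The shared windows were few for the HOXB genes seen in TB: 21 of 6570 for HOXB3, 31 of 1952 for HOXB4, 37 of 1809 for HOXB5, 26 of 2007 for HOXB6 and 24 of 1313 for HOXB7.

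Several genes that flank the clusters were expressed in both types. Of 14 flanking genes analysed, 10 averaged at least 1 CPM, and 2 were at least 4-fold higher in TB (SMUG1 12.9-fold and MTX2 4.57-fold), compared with 14.8% of all genes. Next to HOXA, SKAP2 was at 41.8 CPM in EC and 57.4 CPM in TB, and next to HOXC, CBX5 was at 748 and 570 CPM. SKAP1, TTLL6 and EVX2, each the nearest gene on a side of a cluster, were at 0 in both types.

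Among genes that act on or with HOX genes, those of retinoic acid included members higher in TB and members higher in EC. Of the list's 18 genes, 13 averaged at least 1 CPM, and 3 were at least 4-fold higher in TB (all genes 14.8%) and 3 in EC (10.1%), with a median log2 ratio of TB to EC of -0.11 (all genes 0.06). DHRS3, which turns retinaldehyde back into retinol, was at 331 ± 467 CPM in TB and 0.756 ± 0.754 CPM in EC (438-fold). RARB, a retinoic acid receptor, was at 10.7 ± 27.9 and 0.285 ± 1.14 CPM (37.5-fold), and detected in 32 of 48 TB and 6 of 38 EC cells. RDH10, which makes retinaldehyde from retinol, was at 588 ± 542 and 43.8 ± 122 CPM (13.4-fold). RXRA, the partner of these receptors, was higher in EC, at 6.63 ± 16.3 against 0.545 ± 2.61 CPM (12.2-fold). In the other experiments the fold of DHRS3 was 414 and 116, and that of RXRA 10.97 and 4.95.

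**Figure D5:**
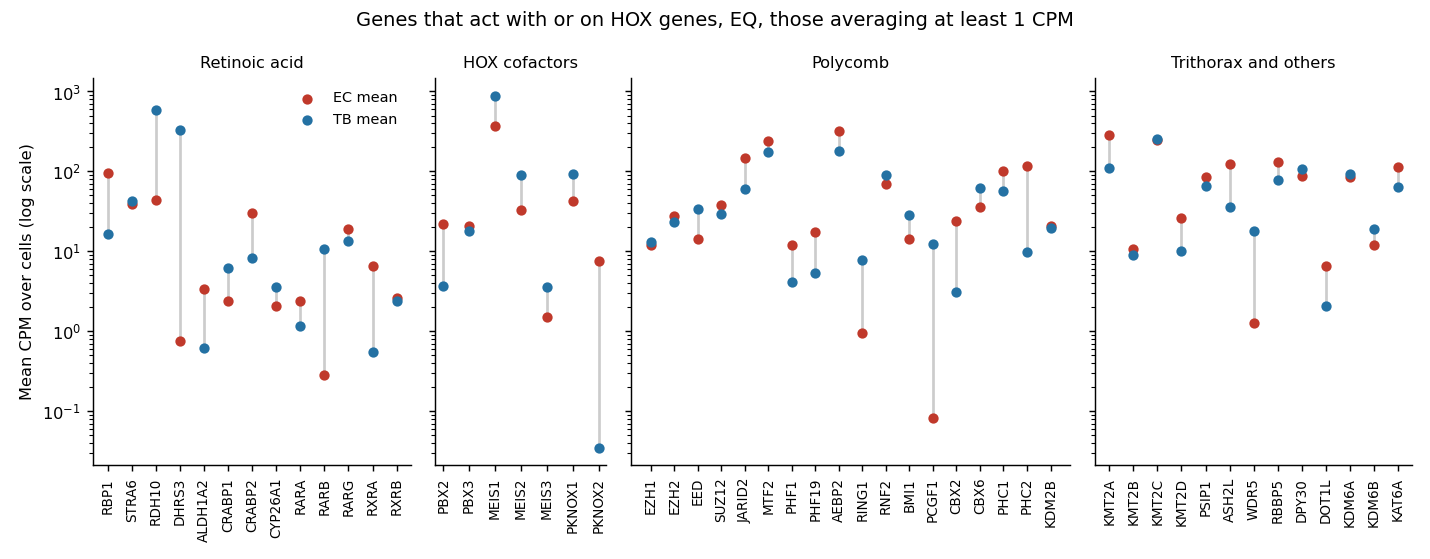
Mean CPM over the passing cells of EQ, on a log axis, for the genes of 4 lists that averaged at least 1 CPM, EC in red and TB in blue, with a grey line joining the means of a gene. DHRS3, PCGF1, RARB, WDR5 and RDH10 stand more than 10-fold higher in TB, and PKNOX2, RXRA and PHC2 more than 10-fold higher in EC.

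HOX cofactors were present in both types. Of 8 genes analysed, 7 averaged at least 1 CPM, with 2 at least 4-fold higher in EC (all genes 10.1%) and 0 in TB (14.8%), while their median log2 ratio of TB to EC was 1.12, since 4 others were 2.17-fold to 2.69-fold higher in TB. MEIS1 was in every cell, at 878 ± 633 CPM in TB and 373 ± 352 CPM in EC. PKNOX2 was at 7.59 ± 36.6 CPM in EC, in 6 of 38 cells, and 0.0352 ± 0.150 CPM in TB, a ratio of summed counts of 193 (65.5 to 938) with 3 counts in TB, and PBX2 was 5.93-fold higher in EC.

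Polycomb and trithorax genes were nearly all expressed. Of 21 Polycomb genes, 18 averaged at least 1 CPM, with 2 at least 4-fold higher in each type, near the shares over all genes (14.8% in TB and 10.1% in EC), and a median log2 ratio of TB to EC of -0.30. PCGF1 (152-fold) and RING1 (8.03-fold) were higher in TB, PHC2 (11.6-fold) and CBX2 (7.73-fold) in EC, and all belong to PRC1 complexes. Of 13 trithorax and other activating factors, all 13 averaged at least 1 CPM, and WDR5, a core subunit of histone H3 methyltransferase complexes, was 14.3-fold higher in TB. The median log2 ratio of this list was -0.38. The CDX genes, activators of HOX genes of middle groups, were nearly absent: 0 of 6 CDX and other ParaHox genes averaged 1 CPM, and CDX1 was at 1.72 CPM in EC from 1 cell and 0.197 CPM in TB (8.70-fold).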

How the data were processed

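The files hold expected counts of 17492 genes in 288 single-cell libraries. Per the methods and labels, the authors trimmed reads to 51 bases, mapped them with Bowtie 1.2.3 (up to 2 mismatches) to GRCh38 Ensembl protein-coding genes and deposited the expected counts of RSEM 1.2.31 without normalization. The library kit does not mark strand, so antisense RNAs could not be told apart. Of the sample columns, 0 were left unused.

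Here counts were rounded to whole numbers, and CPM were taken per cell. Cells passed with a log10 total count of at least 5.4 and at most 31% of counts in the 50 most abundant genes, the limits of the methods. A gene was detected at 1 or more counts. Folds compare mean CPM over cells and were called at 4-fold among genes averaging 1 CPM. A type with no counts was set at 3 counts over the group. Intervals are exact at 95%. Doublets were not called. Gene positions and transcript lengths came from GENCODE v44, and read-length windows were mapped with bwa 0.7.19. TMM factors came from edgeR 4.0.16 in R 4.3.3. All other values came from Python 3.11.15 (pandas 2.3.3, numpy 2.4.6, scipy 1.17.1), and figures from matplotlib 3.10.9. The 4-fold calls and thinning were tested on simulated data. Simulated differences lay in all cells of a type, so the simulation does not cover calls of genes found in few cells.

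The HOX genes and the other lists were chosen with earlier results of these data known. Values were given for HOX genes in at least 10% of passing cells of a type in EQ and per cell for those in at least 25%, and the other HOX genes singled out were chosen after their values were seen. From the other lists, the 4 members with the largest fold of at least 4 and a mean of at least 1 CPM were named, and further ones were chosen after their values were seen. The unEQ libraries of the study were not analysed here. Results for a few further genes are not reported here.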

Additional observations from a re-analysis of the deposited data

Results flagged for a closer look

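Libraries left out of EQ by the limits on total count and abundant genes held HOX counts above 3, the level that a count of 0 allows, and these cells were used only where all cells of at least 100000 counts were included. EC cell 40 had 5 counts of HOXB5 in EQ, with 5 in EQ-Vary and 6 in EQ-75%, and 4 counts of HOXB13. HOXB13 also had 14 counts in EC cell 42, 6 in EC cell 44 and 13 in EC cell 45, at 41.6, 30.04 and 73.8 CPM. These 4 libraries had total counts from 176253 to 336867. With all cells of at least 100000 counts included, HOXB13 became at least 4-fold higher in EC.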

How the results depend on the processing

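No paired analysis was possible because no result comes from a test. Libraries of the same cell were set side by side as values, while shares, means and ratios of an experiment used the cells that passed in it. Of 102 values recomputed under alternatives, 87 stayed within the spread or within 1.5 times. Where a value had one, the spread was the SD between single cells, which is wide. The summed HOX CPM in EC, 9.75 with an SD of 15.96, fell to 4.48 without HOXA6 and HOXB13 and still counted as staying. The tally therefore cannot show that such values are stable. The count of HOX genes at least 4-fold higher in EC, 0 in EQ, became 1 in EQ-Vary (HOXD1), in EQ-75% (HOXB7), with all cells of at least 100000 counts (HOXB13), with summed counts (HOXD1), without the low filter (HOXD1) and at 2-fold (HOXB13). The count higher in TB, 3 in EQ, became 6 without the low filter and 1 (HOXB2) without the highest cell. With summed counts it was 4, HOXB5 among them. HOXB2 was called in TB under each of these alternatives. HOX genes in at least 10% of EC cells, 2 in EQ, were 5 in EQ-75% and 8 at a limit of 5% of cells, and those of TB, 7 in EQ, were 3 at 25%. Detections of at least 3 counts were found again in 88.9% in EC and 94.5% in TB. After the values were seen, HOXA6 and HOXB13 were left out, which gave 0 HOX genes in 10% of EC cells and 0.421 per EC cell. TMM and median-of-ratios scaling shifted EC against TB by -0.07 and -0.05 on the log2 scale and changed no call. Thinned to 500000 counts per cell, HOXB2 was in 77.1% of 46 TB and 2.76% of 37 EC cells, against 89.1% and 5.41% of the same cells unthinned. Depth limits the genes at 0, since 1 count in a cell is about as uncertain as its size.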
